A study of Arabidopsis thaliana with 3 samples.

Results

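The cdf2 and dcl1-9 mutants of Arabidopsis thaliana were compared directly with each other through their small RNA libraries, with 1 library for each mutant. Both mutants are in the Col ecotype, and seedlings were taken at an age of 22 days, without treatment, from soil under 16 h of light and 8 h of dark. The third library of the series, wild-type Col of the same age, served here only for the last comparison. How many plants went into a library and how severe the dcl1-9 plants looked were not given in the sources used here, and transcripts of CDF2 and DCL1 are not measured by small RNA counts. The members compared were the miRNAs listed under the same name in both mutants with at least 10 reads in both libraries summed. Of 328 miRNAs listed for cdf2 and 338 for dcl1-9, 292 had the same name and 180 of these, from 97 families, reached the minimum. Just inside it were rows such as miR840, with 3 reads in cdf2 and 7 in dcl1-9, and miR2937, with 10 and 0, and just outside it were miR404, with 7 and 2, and miR4243, with 9 and 0. No difference between the mutants has a replicate check, so no p-value is given. All intervals are 95% Clopper-Pearson intervals, which cover counting error only.

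CDF2 (CYCLING DOF FACTOR 2) is a Dof transcription factor known for delaying flowering, and the study set it beside DCL1 because it asked whether CDF2 takes part in making miRNAs. DCL1 is the RNase III enzyme that cuts most plant miRNA precursors, first the primary transcript and then the hairpin, to release a duplex of which 1 strand, the mature miRNA, is loaded into an ARGONAUTE protein. A plant miRNA pairs with its target mRNA along nearly all of its length and directs its cleavage or blocks its translation. Many of the old families act on transcription factors, such as the SPL genes that promote the adult phase (miR156 and miR157), AP2-like repressors of flowering (miR172), HD-ZIP III genes of leaf polarity (miR165 and miR166) and auxin response factors (miR160 and miR167).

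The mature sequences below are those on which the largest differences between the mutants turned, together with the closest relatives that differed less. They were read from the RefSeq annotation of the TAIR10.1 assembly, where 178 of the 180 miRNAs were found, with bases 2 to 8 of each in capitals. Where a name gave no arm, the arm with the lower miRBase number was taken, so sequences here are annotated ones and not those of the reads counted. All the sequences below lie outside protein-coding genes except that of miR822, which is within an intron of AT5G03553 on the opposite strand.

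First come miRNAs with a large excess of share in cdf2 and at least 100 reads in both libraries summed, from MIR391 (chr5:24293160-24293180, + strand), MIR396a (chr2:4142443-4142463, - strand), MIR158a (chr3:3366349-3366368, - strand), MIR403 (chr2:19415154-19415174, + strand) and MIR156h (chr5:22597087-22597106, - strand).
miR391: uUCGCAGGagagauagcgcca
miR396a: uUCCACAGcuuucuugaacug
miR158a: uCCCAAAUguagacaaagca
miR403: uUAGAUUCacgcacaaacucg
miR156h: uGACAGAAgaaagagagcac

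Next are miRNAs of the 5 families with the largest excess in dcl1-9 among those with at least 100 reads, from MIR839 (chr1:25279138-25279158, - strand), MIR5642a (chr3:14197116-14197135, + strand), MIR160a (chr2:16340282-16340302, + strand), MIR168a (chr4:10578652-10578672, + strand) and MIR822 (chr5:897287-897307, - strand).
miR839: uACCAACCuuucaucguuccc
miR5642a: uCUCGCGCuuguacggcuuu
miR160a: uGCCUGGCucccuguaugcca
miR168a: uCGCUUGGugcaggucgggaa
miR822: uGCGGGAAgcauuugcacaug

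Last are relatives for comparison within families, from MIR156a (chr2:10676534-10676553, - strand), MIR157a (chr1:24913276-24913296, - strand), MIR157d (chr1:18026989-18027008, - strand), MIR165a (chr1:78932-78952, - strand), MIR166a (chr2:19176241-19176261, + strand), and the overlapping pair in MIR161, with miR161.1 at chr1:17825731-17825751 and miR161.2 at chr1:17825722-17825742 on the + strand.
miR156a: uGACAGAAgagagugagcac
miR157a: uUGACAGAagauagagagcac
miR157d: uGACAGAAgauagagagcac
miR165a: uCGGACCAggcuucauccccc
miR166a: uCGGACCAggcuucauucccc
miR161.1: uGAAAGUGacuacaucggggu
miR161.2: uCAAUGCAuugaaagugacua

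The files held 5248526 miRNA reads for cdf2 and 378685 for dcl1-9, 13.9-fold more in cdf2. Shares of these totals were therefore compared, and a share ratio of 1 means that a miRNA made up the same part of the miRNA reads in both mutants, not that its level was the same. Every count of a family includes its members, and since members with the same mature sequence often have nearly the same count, a read can stand in several of them. Counting intervals around a family total are then narrower than they should be. With 1 member kept per family, the compared rows held 1618059 reads in cdf2 and 80088 in dcl1-9.

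In both mutants miR166 was the leading family by the sum of its members, and it held a far larger part of the dcl1-9 library. By the member with most reads alone, miR157 led in cdf2 and miR166 ranked 2, while miR166 led in dcl1-9. It had 1917119 reads in cdf2, 36.5% of its miRNA reads, and 253077 reads in dcl1-9, 66.8%. The 3 leading families held 78.5% in cdf2 and 89.2% in dcl1-9, and the 5 leading families 90.7% and 97.6%. The effective number of families, the exponential of the Shannon entropy of their shares, was 5.75 in cdf2 and 3.14 in dcl1-9. With 1 member kept per family it was 8.59 in cdf2 and 5.16 in dcl1-9, so the reads of dcl1-9 were less evenly spread on both counts.

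Of the 10 leading families, 9 were the same in the 2 mutants. miR157, which with miR156 acts on SPL genes, ranked 2 in cdf2 (1218072 reads, 23.2%) and 4 in dcl1-9 (23833 reads, 6.29%). miR156 ranked 3 in cdf2 (985194 reads, 18.8%) and 2 in dcl1-9 (50507 reads, 13.3%). miR168, which acts on AGO1, ranked 6 in cdf2 (164937 reads, 3.14%) and 3 in dcl1-9 (34388 reads, 9.08%). These were exchanges of place among abundant families, in which miR168 moved past miR157, miR167 and miR158. miR167 ranked 4 in cdf2 (468727 reads, 8.93%) and 5 in dcl1-9 (7975 reads, 2.11%). miR158 ranked 5 in cdf2 (172998 reads, 3.30%) and 10 in dcl1-9 (243 reads, 0.0642%). miR165 ranked 7 in cdf2 (80378 reads, 1.53%) and 6 in dcl1-9 (3390 reads, 0.895%). miR161, which acts on pentatricopeptide repeat genes, and miR390, which starts the TAS3 trans-acting siRNAs, were in both lists too. miR172 was among the leading 10 only in cdf2, with 39471 reads and rank 8, against 202 reads and rank 13 in dcl1-9. miR5642 was among them only in dcl1-9, at rank 9 with 278 reads, and ranked 30 in cdf2 with 545 reads. Its rows miR5642a and miR5642b share 1 mature sequence, so this place rests on their sum. By the member with most reads alone, miR5642 ranked 12 in dcl1-9 and miR822 ranked 10.

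**Figure D1:**
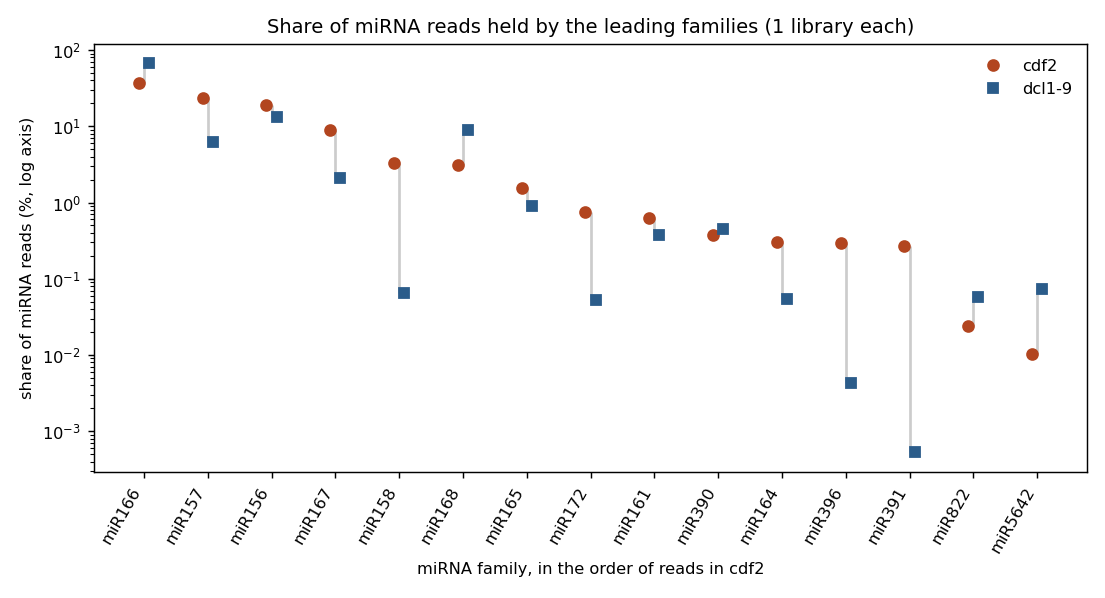
Share of the miRNA reads (%, log axis) held by the 15 families that make up the leading 13 of either mutant, with cdf2 as circles and dcl1-9 as squares, 1 library each. miR166 stands at 36.5% in cdf2 and 66.8% in dcl1-9, and miR391 shows the widest gap.

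A share at least 2-fold higher in cdf2 was found for 73 of the 180 miRNAs (40.6%) and 43 of the 97 families (44.3%). A share at least 2-fold lower in cdf2 was found for 11 miRNAs (6.11%) and 8 families (8.25%). For these calls any count under 3 was set to 3. Of those higher in cdf2, 33 miRNAs and 22 families had 3 or fewer reads in dcl1-9, so their calls rest on this floor. Among them, 21 miRNAs and 13 families had 0 reads there. The depth of dcl1-9 set what could be called: 62 of the 180 miRNAs had 0 reads there and 29 had 1 to 3, while only miR840 had 3 or fewer in cdf2. Of the 96 miRNAs in neither class, 51 had under 3 reads in dcl1-9, and for these a 2-fold higher share in cdf2 could not be called. A smaller excess in cdf2 could still be seen for some, such as miR319b (83 and 0 reads, lower limit of the interval 1.59). The median log2 share ratio was 0.60 over the miRNAs and 0.73 over the families, and 0.70 over the 89 miRNAs with more than 3 reads in dcl1-9. The split between higher and lower shares moved with the scale. When miR166 was left out of the total, every log2 ratio fell by 0.94, and 26 families were higher and 16 lower in cdf2. With edgeR's TMM factors, which lower every log2 ratio by 0.87, these numbers were 28 and 16. On RPM, the reads scaled to all reads stated for each library, every log2 ratio was 3.88 higher and 95 families were higher and 1 lower in cdf2. The order of the families is the same on all of these scales, and the ratios below are on the scale of miRNA reads.

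The counts of the 2 libraries had a Spearman's rho of 0.750 across the 180 miRNAs and 0.795 across the 89 with more than 3 reads in dcl1-9. Across families rho was 0.720 for all 97 and 0.742 for the 42 with more than 3 reads. Points of 1 family share reads, and miRNAs are not independent replicates.

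**Figure D2:**
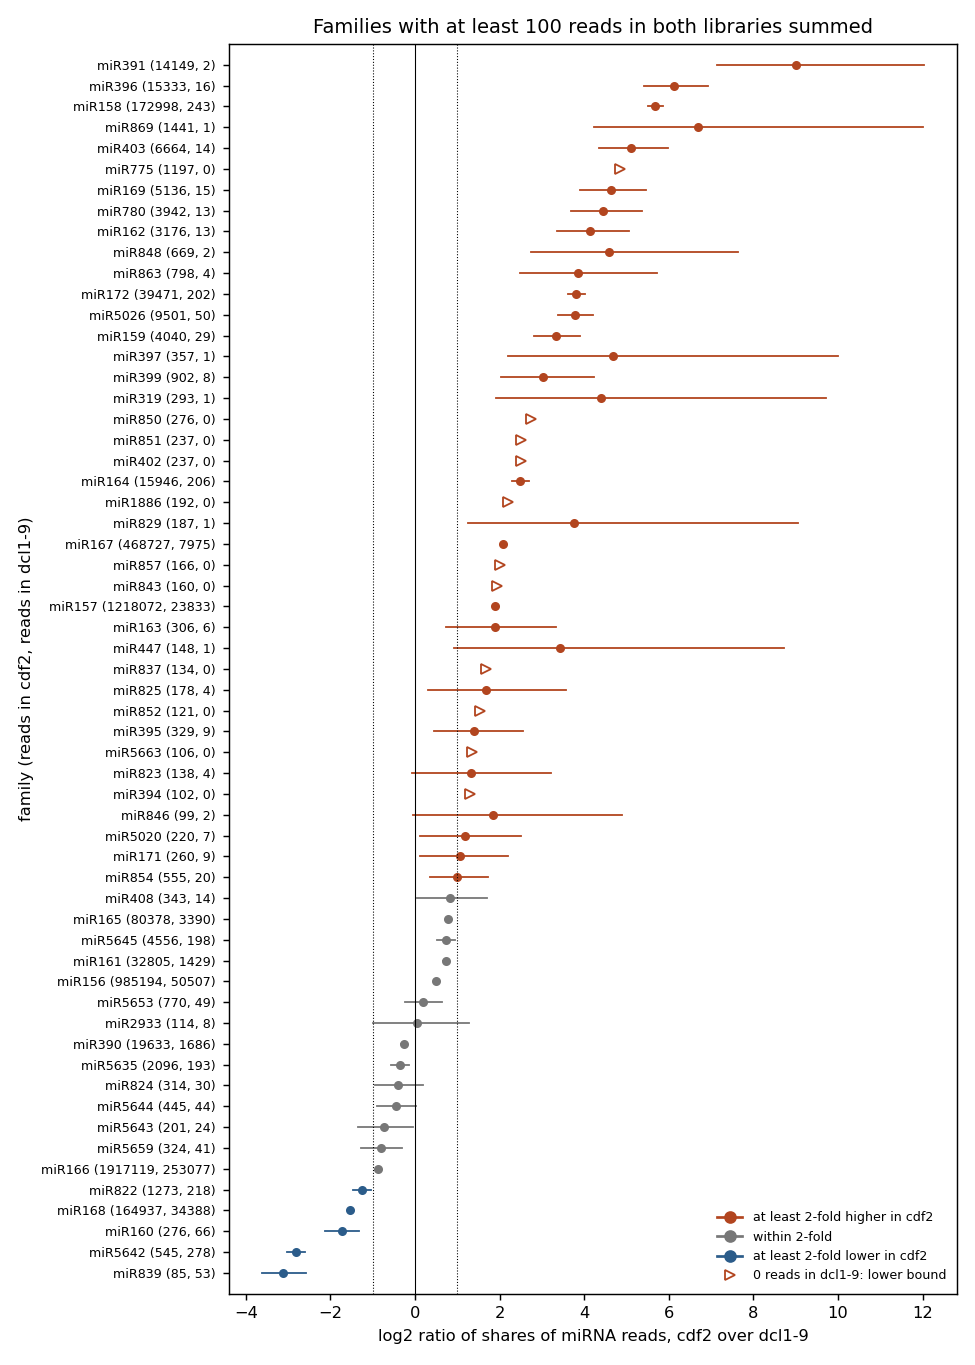
Log2 ratio of shares of miRNA reads, cdf2 over dcl1-9, for the 59 families with at least 100 reads in both libraries summed. Bars are 95% Clopper-Pearson intervals of counting error, open triangles are bounds for families at 0 reads in dcl1-9, and dotted lines mark 2-fold. Of these families, 40 were at least 2-fold higher in cdf2, 5 at least 2-fold lower and 14 within 2-fold.

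Families with at least 100 reads were ordered by the share ratio with counts under 3 set to 3, while the ratios printed use the reads as counted. The largest excess in cdf2 was that of miR391, a relative of miR390. miR391 had 14149 reads in cdf2, where it ranked 13 of 97, and 2 reads in dcl1-9. The ratio of its shares was 510 (interval 141 to 4215). miR390 itself had 19633 reads in cdf2 and 1686 in dcl1-9, a share ratio of 0.840 (0.799 to 0.884), or 12.3 on RPM. The relatives thus differed in share ratio far beyond counting error.

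miR396, which acts on the GRF genes of leaf growth, followed with 15333 reads in cdf2 and 16 in dcl1-9. Its share was 69.1-fold higher in cdf2 (42.6 to 121). By the reads as counted, miR869, with 1 read in dcl1-9, would stand before it. miR158, a miRNA of the Brassicaceae, was 51.4-fold higher (45.3 to 58.5). Among the 8 families at this end of the order, miR158 was the only one with more than 20 reads in dcl1-9, so its ratio is the most precise of them. miR403, which acts on AGO2, had 6664 reads in cdf2 and 14 in dcl1-9, 34.3-fold higher (20.5 to 62.9). miR869 had 1441 reads in cdf2 and 1 in dcl1-9, a ratio of 104 with an interval of 18.6 to 4109. miR775, which acts on a galactosyltransferase gene, had 1197 reads in cdf2 and 0 in dcl1-9. Its share was 28.8-fold higher with dcl1-9 set to 3 reads, and the lower limit of its interval was 23.4.

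miR169, which acts on NF-YA genes, had 5136 reads in cdf2 and 15 in dcl1-9, 24.7-fold higher (14.96 to 44.2). The 3 miRNAs miR169d, miR169e and miR169f, which share 1 mature sequence, each had 1217 to 1226 reads in cdf2 and 0 in dcl1-9. The reads in dcl1-9 were 9 of miR169a, 5.59-fold higher in cdf2 (2.93 to 12.3), and 6 of miR169b, with a ratio of 0.541 (0.230 to 1.55). The family ratio is thus not that of every member. miR780 closed these 8 with 3942 reads in cdf2 and 13 in dcl1-9, 21.9-fold higher (12.8 to 41.1). By the reads as counted, miR397, with 1 read in dcl1-9 and a ratio of 25.8, and miR848, with 2 reads there and a ratio of 24.1, would stand before it.

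At the other end, among families with at least 100 reads, miR839 had 85 reads in cdf2 and 53 in dcl1-9, so that with 13.9-fold fewer miRNA reads dcl1-9 still held a comparable count. Its share was 8.64-fold lower in cdf2 (6.01 to 12.3). miR5642 had 545 reads in cdf2 and 278 in dcl1-9, 7.07-fold lower in cdf2 (6.10 to 8.18). miR160, which acts on the auxin response factors ARF10, ARF16 and ARF17, had 276 reads in cdf2 and 66 in dcl1-9, 3.31-fold lower in cdf2 (2.49 to 4.35). miR168 was the only abundant family of this class, 2.89-fold lower in cdf2 (2.86 to 2.92). miR822 had 1273 reads in cdf2 and 218 in dcl1-9, 2.37-fold lower in cdf2 (2.05 to 2.74). On RPM, each of them was higher in cdf2, by 1.70-fold for miR839 to 6.19-fold for miR822. The other 3 families of the class were rare. miR840 had 3 reads in cdf2 and 7 in dcl1-9, 32.3-fold lower in cdf2 (7.38 to 194). miR835, with 12 and 3 reads, was 3.46-fold lower (0.627 to 12.8), and miR5629, with 13 and 3, 3.20-fold lower (0.585 to 11.6). Both of these intervals include 1, and calls that also need an interval beyond 1 left 6 families lower in cdf2. Next in order, and within 2-fold, were miR166, 1.83-fold lower in cdf2 (1.82 to 1.84), miR5659, 1.75-fold lower (1.24 to 2.43), and miR5643, 1.65-fold lower (1.04 to 2.53).

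Ranks gave much the same families, with others added from the rare end. The 34 families at 0 reads in dcl1-9 are tied at rank 80.5 there, and of those with at least 100 reads miR775 stood highest in cdf2, at rank 24. miR850 (276 reads in cdf2), miR402 (237), miR851 (237), miR1886 (192) and miR857 (166) were also at 0 reads in dcl1-9, with ranks of 39.5 to 49 in cdf2. miR391 ranked 13 in cdf2 and 50.5 in dcl1-9, and miR869 22 and 58.5. In the other direction miR839 ranked 61.5 in cdf2 and 17 in dcl1-9, miR160 39.5 and 16, miR5642 30 and 9, and miR5643 45 and 24. miR2933 (114 reads in cdf2 and 8 in dcl1-9) ranked 55 and 34.5. miR824, which acts on AGL16, ranked 36 in cdf2 with 314 reads and 22 in dcl1-9 with 30 reads. A rank change of miR2933 or miR824 went with share ratios of 1.03 (0.504 to 2.44) and 0.755 (0.519 to 1.14), whose intervals include 1.

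Grouped by role, families of organ growth leaned most evenly to cdf2, while feedback and auxin families were divided. Each count is to be read beside the background above, 44.3% of families higher and 8.25% lower in cdf2. Higher shares were more common among families with at least 100 reads, of which 40 of 59 were higher and 5 lower. All 5 compared families of the first group below reached 100 reads. In the group of organ boundary, growth and cell division, all 5 compared families were higher in cdf2 (median log2 share ratio 2.82). Besides miR396, these were miR164, which acts on NAC genes of organ boundaries (15946 reads in cdf2 and 206 in dcl1-9, 5.59-fold, 4.87 to 6.44), and miR159, which acts on GAMYB-like genes (4040 and 29 reads, 10.1-fold, 6.99 to 15.03). miR319, which acts on TCP genes, had 293 reads in cdf2 and 1 in dcl1-9, a ratio of 21.1 (3.76 to 838). miR171, which acts on GRAS genes, had 260 and 9 reads, 2.08-fold (1.08 to 4.61). The call of miR171 was lost with TMM (1.14), with DESeq2 size factors (1.26), with miR166 left out (1.09) and by its largest member (1.64), so that 4 of the 5 were higher there. miR170 had under 10 reads in both libraries summed.

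Among the 3 families of flowering and phase change, miR172 and miR157 were higher in cdf2 and miR156 was within 2-fold. miR172 had a share 14.1-fold higher in cdf2 (12.3 to 16.3), miR157 a share 3.69-fold higher (3.64 to 3.74) and miR156 a ratio of 1.41 (1.40 to 1.42), which was 0.770 with TMM and 0.735 with miR166 left out. Neither family of leaf polarity passed 2-fold, and miR165 had a ratio of 1.71 (1.65 to 1.77) and miR166 one of 0.547 (0.544 to 0.549). They lay on opposite sides of 1 on this scale, but both were above 1 on RPM (25.1 and 8.02) and both below 1 with TMM (0.936 and 0.299) or with miR166 left out (0.894 and 0.286). Of the auxin families, miR167, which acts on ARF6 and ARF8, was 4.24-fold higher in cdf2 (4.15 to 4.34) and miR160 lower. miR393, which acts on the auxin receptor genes, had 22 reads in cdf2 and 0 in dcl1-9 and could not be placed.

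The families that act on the miRNA pathway itself were divided. miR162, which acts on DCL1, had 3176 reads in cdf2 and 13 in dcl1-9, 17.6-fold higher in cdf2 (10.3 to 33.1). miR403 was higher too, whereas miR168 was lower in cdf2. The 3 families reported to be cut by DCL4, a second Dicer, also split: miR822 and miR839 were among the lowest in cdf2 and miR869 among the highest. The shares of miR869 in dcl1-9 rest on 1 read.

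Of the copper families, miR397, which acts on laccase genes (357 reads in cdf2 and 1 in dcl1-9, ratio 25.8, 4.59 to 1020), and miR857 (166 and 0 reads) were higher in cdf2. The share of miR857 was 3.99-fold higher with dcl1-9 set to 3 reads, and the lower limit of its interval was 3.21. miR408 had a ratio of 1.77 (1.04 to 3.27), or 0.967 with TMM. Of the families of phosphate and sulfate supply, miR399, which acts on PHO2, was 8.13-fold higher in cdf2 (4.11 to 18.9). miR395, which acts on genes of sulfate assimilation, was 2.64-fold higher (1.37 to 5.82) as a sum of its rows, or 1.44-fold with TMM. Of these rows, miR395b, miR395c and miR395f share 1 mature sequence, with 69 and 3 reads each, a ratio of 1.66 (0.545 to 8.24). No row of miR395 passed 2-fold alone. miR827 had 29 reads in cdf2 and 0 in dcl1-9. No row of miR398 (copper) or miR778 (phosphate) reached the minimum of reads. miR394, which acts on the F-box gene LCR, had 102 reads in cdf2 and 0 in dcl1-9. As a sum of its rows it was 2.45-fold higher with dcl1-9 set to 3 reads, but the lower limit of its interval was 1.96, under 2-fold. These rows, miR394a and miR394b, share 1 mature sequence, with 51 and 0 reads each. Each alone had a ratio of 1.23 with dcl1-9 set to 3 reads, under 2-fold, and a lower limit of the interval of 0.962. Of the 5 families of the Brassicaceae, miR158, miR391 and miR163 (306 and 6 reads, 3.68-fold, 1.67 to 10.1) were higher in cdf2, and miR161 (1.66, 1.57 to 1.75, or 0.906 with TMM) and miR400 (36 and 2 reads) were not. Of 24 conserved families, 15 were higher in cdf2 and 2 lower, with a median log2 share ratio of 1.64. For comparison, 40 of the 59 families with at least 100 reads were higher. The 26 families numbered 5000 and above had a median of -0.60 with 4 higher and 2 lower, but 16 of them had 3 or fewer reads in dcl1-9. Over the 10 with more reads the median was -0.085. miR5026 had the largest ratio of these 10, with 9501 reads in cdf2 and 50 in dcl1-9, 13.7-fold higher (10.4 to 18.5).

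**Figure D3:**
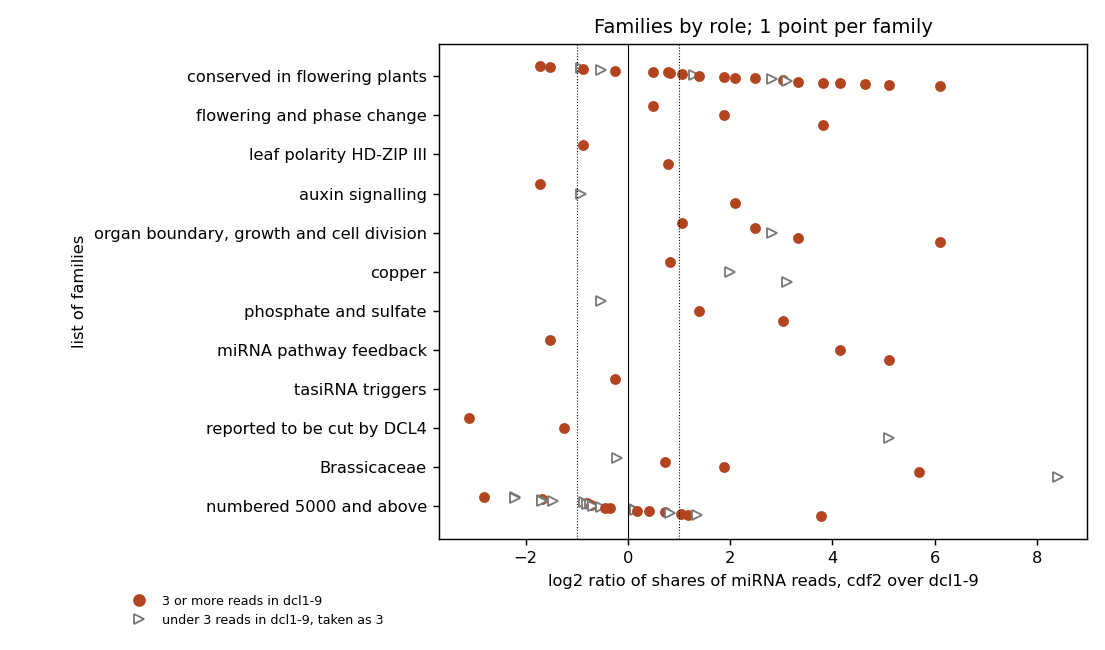
Log2 ratio of shares of miRNA reads, cdf2 over dcl1-9, with 1 point per compared family in each list of families by role. Filled circles have at least 3 reads in dcl1-9, open triangles have fewer and were taken as 3, and dotted lines mark 2-fold. All 5 families of organ boundary, growth and cell division lie to the right of the 2-fold line, and the 3 feedback families lie on both sides.

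Members of 1 family could differ widely. In the miR156 family, miR156h had 31039 reads in cdf2 and 54 in dcl1-9, and its share was 41.5-fold higher in cdf2 (31.8 to 55.2). miR156a, whose sequence above differs from that of miR156h by G11A and U14A (positions counted from the 5′ end, base of miR156a first), had 137240 reads in cdf2 and 8271 in dcl1-9, a ratio of 1.20 (1.17 to 1.22). The seed in capitals is the same in both. miR156h differs from miR157d only by A11U, with the base of miR156h first. miR157d had 37309 reads in cdf2 and 232 in dcl1-9, 11.6-fold higher in cdf2 (10.2 to 13.3). The sequence of miR157d is contained in that of miR157a from its position 2, and miR157a had 391130 reads in cdf2 and 7837 in dcl1-9, 3.60-fold higher (3.52 to 3.68). The 4 sequences so ran in the order miR156h, miR157d, miR157a and miR156a, with intervals that do not overlap.

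miR156d has the same annotated mature sequence as miR156a but 267616 reads in cdf2 and 9154 in dcl1-9, a ratio of 2.11 (2.07 to 2.15). Rows of 1 annotated sequence were thus not always counted alike. miR160 showed the same: miR160a and miR160c had 105 and 107 reads in cdf2 and 33 each in dcl1-9, while miR160b, of the same sequence, had 64 reads in cdf2 and 0 in dcl1-9. The excess of the miR160 family in dcl1-9 is thus that of miR160a and miR160c. By contrast, the ratios of the 7 rows of miR166 ranged over 0.02 on the log2 scale.

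miR165a and miR166a differ by C17U, with the base of miR165a first. miR165a had 40355 reads in cdf2 and 1691 in dcl1-9, a ratio of 1.72 (1.64 to 1.81), and the largest row of miR166, miR166a, a ratio of 0.554. In the MIR161 hairpin 2 mature miRNAs overlap by 12 bases. miR161.1 had 27432 reads in cdf2 and 1389 in dcl1-9, a ratio of 1.42 (1.35 to 1.505). miR161.2, which begins 9 bases upstream, had 5373 and 40 reads, 9.69-fold higher in cdf2 (7.11 to 13.6). These 2 products come from 1 precursor, and their intervals do not overlap. In the miR164 family, miR164a had 7729 reads in cdf2 and 94 in dcl1-9, 5.93-fold higher (4.84 to 7.35), and miR164c, which differs from it by A21G, had 443 and 21 reads, a ratio of 1.52 (0.983 to 2.48). In the miR172 family all 4 compared rows were higher in cdf2, by 7.20-fold for miR172e to 15.2-fold for miR172c.

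**Figure D4:**
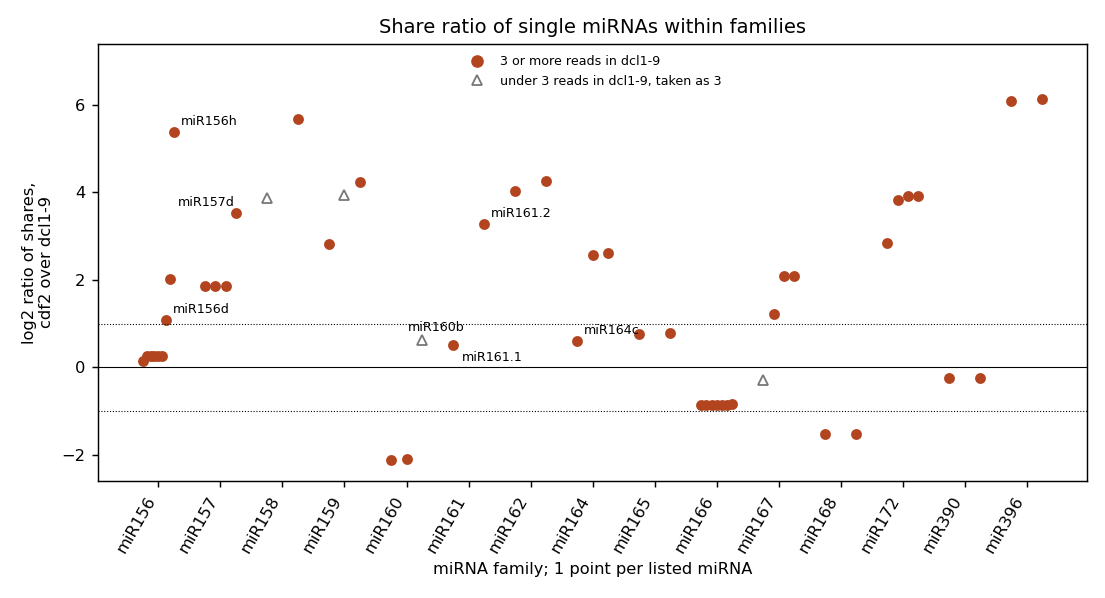
Log2 ratio of shares of miRNA reads, cdf2 over dcl1-9, with 1 point per listed miRNA in 15 families. Open triangles have under 3 reads in dcl1-9 and were taken as 3, and dotted lines mark 2-fold. miR156h stands far above the other rows of miR156, and miR161.2 above miR161.1, while the 7 rows of miR166 lie together.

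Features of the precursors were set beside the calls as a description only, to be read against the 40.6% of all compared miRNAs that were higher and the 6.11% that were lower in cdf2. Hairpins were folded with RNAfold, and the miRNAs were put in 3 classes by free energy per base. In the class with the lowest free energy, that is the most stable hairpins, 14 of 59 miRNAs were higher and 7 lower in cdf2. In the class with the highest, 29 of 60 were higher and 0 lower. The median log2 ratio over rows with more than 3 reads in dcl1-9 was 0.26 in the lowest class, 2.09 in the middle class and 1.002 in the highest, so it did not follow the order of the classes. By hairpin length, 16 of 59 miRNAs were higher and 2 lower in the short class, and 26 of 59 and 2 in the middle class. In the long class, 30 of 60 were higher and 7 lower. Their medians over rows with more than 3 reads in dcl1-9 were 0.18, 1.04 and 0.91. In the larger classes by first base and by mature length, given next, the shares called higher lay near that background or below it. With a 5′ U, 52 of 123 miRNAs were higher and 10 lower in cdf2, and with a 5′ A, 11 of 31 were higher and 1 lower. Likewise 58 of 136 miRNAs of 21 bases were higher and 7 lower, and 8 of 25 of 20 bases were higher and 2 lower. Of the 178 miRNAs with a sequence, 81 share it with another, so these counts repeat some sequences.

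Whether the miRNAs most reduced in 1 mutant were also the most reduced in the other was asked against Col, in RPM. Both mutants are divided by the same Col counts here, so only the values of each comparison are given side by side. Of 107 miRNAs with at least 100 reads in Col, the median was 1.40-fold below Col in cdf2 and 65.3-fold below Col in dcl1-9, where 30 had 3 or fewer reads and were taken as 3. In cdf2, 78 of the 107 were below Col on this scale. The miRNA reads were 8833288 in Col and 5248526 in cdf2, so a miRNA below Col in RPM need not have a lower share of miRNA reads.

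The 10 miRNAs most reduced in cdf2 were miR164c, miR771, miR391, miR5020b, miR156d, miR156j, miR165a, miR165b, miR167d and miR171a. Their median was 2.10-fold below Col in cdf2 and 65.7-fold below Col in dcl1-9, against the 65.3-fold of all 107. When Col had to hold 1000 reads or more, which 47 miRNAs did, the 10 most reduced in cdf2 had a median of 51.3-fold in dcl1-9, against 92.5-fold of all 47. miR164c led with 35.9 RPM in cdf2, 1.61 RPM in dcl1-9 and 144 RPM in Col, 4.01-fold below Col in cdf2 and 89.7-fold below in dcl1-9. It was place 1 in cdf2 and place 43 in dcl1-9. Of these 10, all but miR391 held places from 37 to 69 in dcl1-9, in the middle of the order. miR156d had 21671 RPM in cdf2, 699.8 RPM in dcl1-9 and 46330 RPM in Col, place 5 in cdf2 and 53 in dcl1-9. miR165a was at place 7 in cdf2 (3268 RPM, 2.04-fold below the 6671 RPM of Col) and 60 in dcl1-9 (129 RPM, 51.6-fold below). Among the 10, 3 had 3 or fewer reads in dcl1-9, so their places there rest on the floor. These were miR771 (63 reads in cdf2 and 0 in dcl1-9), miR5020b (118 and 1) and miR391 (14149 and 2).

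The 10 most reduced in dcl1-9 were miR391, miR396a, miR396b, miR156h, miR158a, miR403, miR159b, miR780.1, miR775 and miR162b. Their median was 1.56-fold below Col in cdf2, against 1.40-fold over all 107, and 832-fold below Col in dcl1-9. With at least 1000 reads in Col the direction turned, since the same 10 were then set against a median of 1.80-fold over all 47 miRNAs in cdf2. miR391 stood near the top of both orders, place 3 in cdf2 with 1146 RPM and place 1 in dcl1-9 with 0.153 RPM, against 3326 RPM in Col. miR396a had 628 RPM in cdf2, 0.612 RPM in dcl1-9 and 1161 RPM in Col, place 26 in cdf2 and 2 in dcl1-9. miR158a was at place 69 in cdf2, with 13960 RPM in cdf2, 18.6 RPM in dcl1-9 and 16799 RPM in Col. miR775 was not below Col in cdf2 at all, with 96.9 RPM in cdf2, 0 in dcl1-9 and 94.6 RPM in Col. Among the 107, miR869.2 was last in cdf2, with 116 RPM against 58.1 RPM in Col, yet it was at place 17 in dcl1-9 with 1 read. The smallest reductions in dcl1-9 were those of miR5642a, 2.56-fold below Col, miR5642b, 3.44-fold, miR160a, 4.17-fold, and miR160c, 4.35-fold. In cdf2 these were 1.42-fold, 1.40-fold, 1.24-fold and 1.27-fold below Col, at places 48 to 65.

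**Figure D5:**
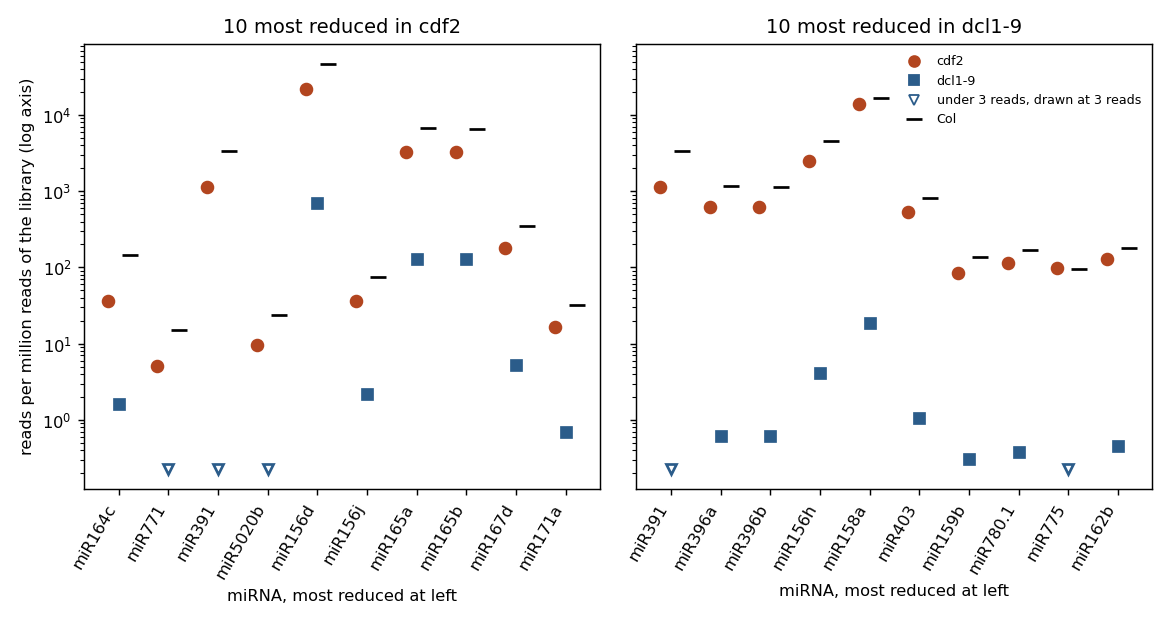
RPM by all reads stated for each library (log axis) in cdf2 (circles), dcl1-9 (squares) and Col (dashes), 1 library each, for the 10 miRNAs most reduced against Col in cdf2 (left) and in dcl1-9 (right). Open triangles are dcl1-9 values under 3 reads, drawn at 3 reads. On both sides the dcl1-9 values lie far below cdf2, and miR391 is in both panels.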

How the data were processed

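Small RNAs of 22-day-old seedlings were isolated with the mirVana kit and sequenced by the authors on the Illumina platform, in 1 library per genotype. The authors trimmed adaptors with Perl scripts, mapped reads with Bowtie to the hairpins of miRBase 15 and identified known miRNAs with miRNA database version 16. The labels name the TAIR10 build, and the Bowtie version and the rule for reads that match several miRNAs are not given in the sources used here. The deposited values used were raw counts of reads per miRNA. A further table per mutant against Col, deposited by the authors, held counts and RPM values with fold changes and p-values, which are the authors' comparisons and were not used. From these tables only the library totals (14406060 reads for cdf2, 9443719 for dcl1-9 and 14073145 for Col) and the Col counts were read.

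Counts of cdf2 and dcl1-9 were divided by the sum of all miRNA counts of the library. In cdf2, 36 rows (48698 reads, 0.928%) and in dcl1-9, 46 rows (240 reads, 0.0634%) had no partner of the same name and were not compared. A family is the number in the miRNA's name. Counts of 3 or fewer reads were set to 3 for calls, a row with under 3 reads in dcl1-9 could not be called lower, and a call was a share ratio of at least 2. Intervals of ratios are conditional Clopper-Pearson intervals at 95%. They cover counting error only, since each genotype has 1 library. The reads carried no molecular identifiers, so copies of 1 molecule could not be told from separate molecules. One read is 0.191 RPM of miRNA reads in cdf2 and 2.64 in dcl1-9. Against Col, RPM was computed with the total reads stated for each library, 12349211 for cdf2, 13081202 for dcl1-9 and 11489298 for Col.

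The members, role lists and naming rule were chosen with earlier results of these data known. Families and miRNAs named were the 10 with most reads in each library, the 8 largest share ratios and rank differences per direction among families with at least 100 reads, the 5 largest ratios per direction among such miRNAs, the 10 most reduced against Col in each mutant, the families named by the study, and the members of the lists with the largest counts. miR835, miR840, miR5629, miR5026 and the miRNAs set side by side within families were named after their values were seen, as were miR869.2 and the 4 least reduced in dcl1-9. Alternatives were other totals, edgeR 4.0.16 TMM and DESeq2 1.42.0 size factors, other count minimums, 1 read added to each count, calls that also need an interval beyond 1, and 1 member per family. Those added after seeing the data left out miR166, took 1 member per family in the total or joined later names. Scripts ran in Python 3.11.15 and R 4.3.3, and hairpins were folded with RNAfold 2.7.2. Ratios, intervals and calls were tested on simulated counts drawn separately for each miRNA, which do not cover reads shared between rows.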

Additional observations from a re-analysis of the deposited data

Results flagged for a closer look

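The dcl1-9 rows outside the comparison, whose names are not in the cdf2 list, held 8 miRNAs with more than the 3 reads that a count of 0 allows. They were miR172b-3p with 189 reads, miR172b-5p with 13, miR173-5p with 6, miR5996 with 6, miR5014b with 5, and miR2111a-5p, miR2111b-5p and miR841b-3p with 4 each. Through the Col count that the deposited table repeats, miR172b-3p could be joined to miR172b, which had 37394 reads in cdf2 and thereby a share 14.3-fold higher in cdf2 (12.4 to 16.6). Its passenger strand miR172b-5p, listed in cdf2 as miR172b* with 3547 reads, had a share 19.7-fold higher in cdf2 (11.5 to 37.0). miR173, which starts the TAS1 and TAS2 trans-acting siRNAs, had 4784 reads in cdf2 and 6 in dcl1-9, a share 57.5-fold higher in cdf2 (26.4 to 157), whereas miR390, a trigger that was compared, had a ratio of 0.840. miR841b-3p, listed in cdf2 as miR841b* with 197 reads, had a ratio of 3.55 (1.37 to 13.2).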

How the results depend on the processing

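No paired analysis was possible because each genotype has 1 library, and for the same reason no replicate could be left out. The number of miRNAs at least 2-fold higher in cdf2 (73) became 177 on RPM by all reads stated, 174 on the library totals of the deposited tables, 46 with TMM and 45 with miR166 left out of the total. The number lower (11) became 1, 1, 30 and 31 in the same order, 28 with DESeq2 size factors and 25 with 1 member per family in the total. For families the number higher (43) became 95, 92, 28 and 26 under the first 4 of these, and the number lower (8) became 1, 1, 16 and 16, 15 with DESeq2 size factors and 5 with at least 100 reads. These scales shift every log2 ratio by 3.88, 3.18, -0.87, -0.94, -0.73 (DESeq2) and -0.54 (1 member per family), which is the cause of the change, while the minimum of 100 reads leaves fewer miRNAs to compare. The other settings stayed within 1.5 times. The 5 named families lower in cdf2 were higher in cdf2 on RPM, with ratios on the stated and on the deposited totals of 4.43 and 2.74 for miR160, 5.08 and 3.14 for miR168, 2.08 and 1.29 for miR5642, 6.19 and 3.83 for miR822, and 1.70 and 1.05 for miR839. Ranked by the largest member of each family, 8 in place of 9 families were in both lists of the leading 10, and the ranks of the 11 families in either list moved by at most 5 places. Spearman's rho of 0.750 was 0.714 without a minimum, 0.716 with at least 100 reads and 0.720 with 1 point per family. The median fall in dcl1-9 of the 10 miRNAs most reduced in cdf2 was 38.7-fold on the deposited totals and 51.3-fold with at least 1000 reads in Col, where that of all 47 miRNAs was 92.5-fold. The median fall in cdf2 of the 10 most reduced in dcl1-9 was 1.49-fold on the deposited totals. These totals change the fall of every miRNA of a mutant by the same factor, so each median keeps its relation to that of all miRNAs. The reads of dcl1-9 limit depth most: 91 of the 180 miRNAs had 3 or fewer there.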
